A study of Mus musculus with 9 samples.

Results

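The secreted Wnt inhibitors are proteins that cells release and that hold Wnt signalling down outside the cell. The 8 genes described here are Sfrp1, Sfrp2, Sfrp4 and Frzb of the secreted Frizzled-related family, Dkk1, Dkk2 and Dkk3 of the Dickkopf family, and Wif1. They were chosen with earlier results of these data known, and not all genes of these families are among them. Sfrp5 and Dkk4, for example, are counted with the further inhibitors below. The members are 8 of 20422 genes and 56 of 212138 probe sets measured on 9 mouse gene expression arrays. The arrays fell into 3 groups of 3. D-ME-iPSCs were induced pluripotent stem cells (iPSCs) made from mammary epithelial (ME) cells and then differentiated towards ME cells. D-TF-iPSCs were iPSCs made from tail-tip fibroblasts (TFs) and differentiated in the same way. ME cells were freshly isolated and served as the control. The study asked which genes separate iPSCs of fibroblast origin from those of mammary origin once both have been differentiated.

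Both kinds of iPSC had been made with retroviruses carrying the 4 factors Oct4, Sox2, Klf4 and c-Myc, together with a lentiviral EGFP reporter, on mouse embryonic fibroblast feeder cells. The ME cells to be reprogrammed came from virgin female mice of 2 and 6 months, and the TFs came from mice of 2 months. Differentiation ran in 2 steps of 3 and 6 days in mammary growth medium with Matrigel. Cells of all these kinds that were implanted into mice carried a β-galactosidase gene, in D-ME-iPSCs from mice named Rasa-26, but D-ME-iPSCs without the gene were used as well. For the cells on the arrays, the sources used here give neither the β-galactosidase status nor the strain, nor the age of the mice behind the ME arrays or the number of iPSC lines behind the other arrays. The series calls the 3 arrays of a group biological replicates without saying what was repeated, so the p-values measure the spread between these arrays only.

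Wnt ligands bind Frizzled receptors and the co-receptors Lrp5 and Lrp6, and this keeps β-catenin from being broken down so that it can switch on target genes with the TCF and LEF factors. Secreted Frizzled-related proteins and Wif1 bind Wnt ligands directly, whereas Dkk1 and Dkk2 occupy Lrp5 and Lrp6. In the mouse, Wnt signalling is needed for the embryonic mammary buds to form and sustains mammary stem cells in the adult, and forced expression of Dkk1 in embryonic skin blocks mammary development.

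An array did not sit with its label, and results are therefore given for all arrays and, where that changes a call or moves a count by over 1.5 times, also without it. Over all genes, the array labelled ME replicate 1 correlated at r = 0.991 to 0.993 with the D-ME-iPSC arrays, but at 0.920 to 0.943 with ME replicates 2 and 3, which reached 0.973 with each other. Csn2, the milk protein β-casein, was 8.60 to 8.77 on the log2 scale in the D-ME-iPSC arrays, 8.52 in the array labelled ME replicate 1, and 12.17 and 12.48 in ME replicates 2 and 3. All values below are log2 expression values as the authors deposited them, a gene being the mean of its probe sets. A difference is the first group minus the second on that scale, tested with limma and called where its adjusted p over all genes was under 0.05. In such bulk RNA, fewer cells of a type and less RNA per cell cannot be told apart.

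RefSeq promoter windows (build GRCm38.p6, 250 bases before to 50 bases after the start of the gene) were held for 5 of the 8 genes, namely Sfrp2, Frzb, Dkk1, Dkk2 and Wif1. Those of Dkk2, Sfrp2 and Wif1 are printed, 5′ to 3′ along the gene. The Dkk2 and Sfrp2 windows are shown because both were higher in D-TF-iPSCs than in both other groups, and Wif1 because it was not. Capitals mark the TCF/LEF core (CTTTGA or CTTTGT, either strand) and the TATA box (TATAAA, either strand).
Dkk2 (chr3:132085042-132085341, + strand): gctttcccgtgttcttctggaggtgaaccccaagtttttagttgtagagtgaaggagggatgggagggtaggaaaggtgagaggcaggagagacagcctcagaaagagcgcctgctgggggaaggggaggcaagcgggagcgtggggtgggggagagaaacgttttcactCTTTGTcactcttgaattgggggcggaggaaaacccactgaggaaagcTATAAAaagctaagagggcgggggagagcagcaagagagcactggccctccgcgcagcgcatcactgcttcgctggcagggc
Sfrp2 (chr3:83766071-83766370, + strand): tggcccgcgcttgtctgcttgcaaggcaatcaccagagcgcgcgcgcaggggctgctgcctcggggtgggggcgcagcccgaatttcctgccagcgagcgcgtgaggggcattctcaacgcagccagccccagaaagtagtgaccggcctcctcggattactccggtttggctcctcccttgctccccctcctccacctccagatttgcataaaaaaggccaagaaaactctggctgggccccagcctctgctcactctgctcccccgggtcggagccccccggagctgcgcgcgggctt
Wif1 (chr10:121033754-121034053, + strand): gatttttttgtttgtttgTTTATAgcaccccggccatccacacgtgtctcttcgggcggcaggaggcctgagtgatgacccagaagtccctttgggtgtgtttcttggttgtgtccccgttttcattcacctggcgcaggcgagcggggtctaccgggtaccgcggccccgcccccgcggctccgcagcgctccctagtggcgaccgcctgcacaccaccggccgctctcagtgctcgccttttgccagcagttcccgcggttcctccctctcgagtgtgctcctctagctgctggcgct
The Dkk2 window held 1 TCF/LEF core and 1 TATA box, which did not overlap. The Sfrp2 window held neither, and the Wif1 window held 1 TATA box match near its upstream end, on the opposite strand. Of the windows not printed, Dkk1 held 3 TCF/LEF cores and 1 TATA box, and Frzb held 1 TCF/LEF core. Among all 32851 windows of the same length, 31.2% held the TCF/LEF core and 13.6% the TATA box.

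Sfrp1, Sfrp2, Frzb and Dkk2 were higher in D-TF-iPSCs than in both other groups. Sfrp4 and Wif1 were highest in ME replicates 2 and 3, Dkk3 was lowest in the same 2 arrays, and Dkk1 followed no group. Averaged over all arrays, Frzb, Dkk1 and Wif1 lay below the median gene and the other members above it. Between D-ME-iPSCs and D-TF-iPSCs, 4 of the 8 genes were called lower and 0 higher, where 6.45% of all genes were called lower and 13.3% in either direction. Between D-TF-iPSCs and ME cells, 5 of the 8 were called higher and 0 lower, where 8.78% of all genes were called higher and 16.3% in either direction. Both comparisons use the same D-TF-iPSC arrays and so are not independent of each other. The 8 genes were chosen with earlier results of these data known, so their share of calls is not an independent test. The median difference of the 8 genes was -0.82 for D-ME-iPSC minus D-TF-iPSC and 0.92 for D-TF-iPSC minus ME, while the median over all genes was -0.01 in each.

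**Figure D1:**
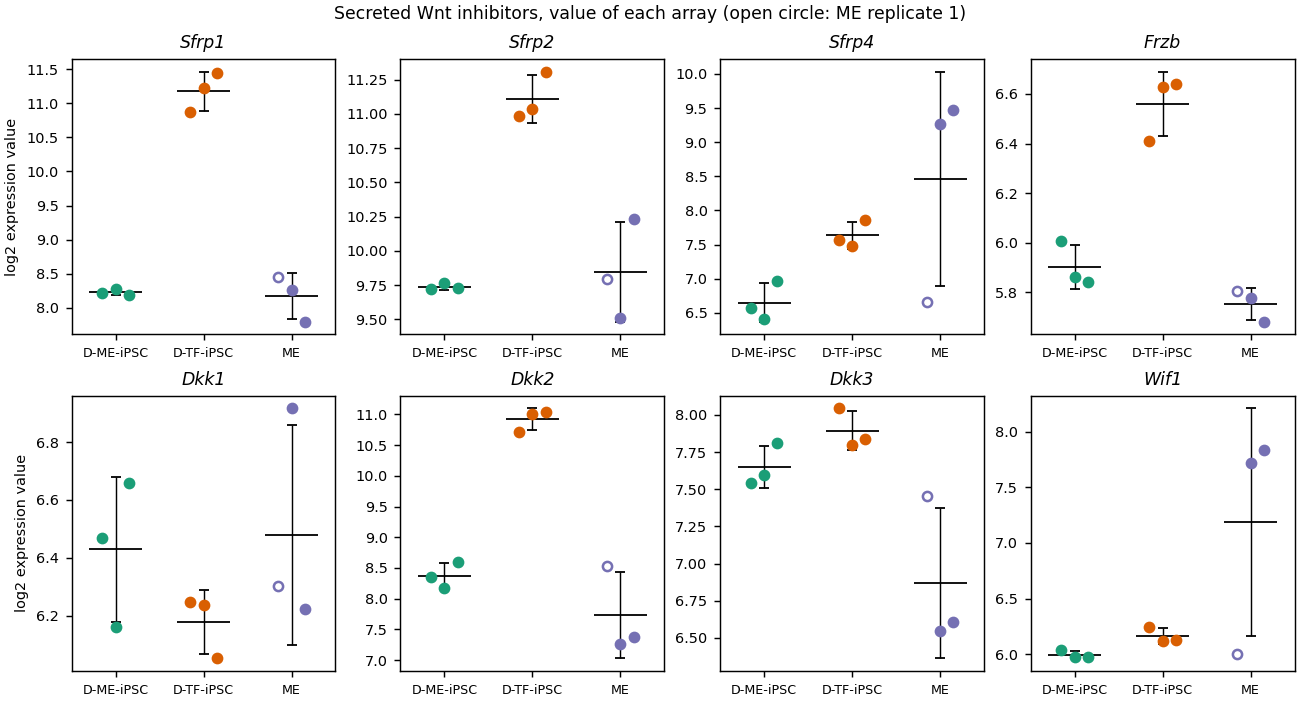
Log2 expression value of the 8 secreted Wnt inhibitor genes on each array, 1 panel per gene with its own axis; points are arrays, horizontal lines group means, error bars SDs (n = 3), and the open circle is the array labelled ME replicate 1. Sfrp1, Sfrp2, Frzb and Dkk2 lie higher on all 3 D-TF-iPSC arrays than on any other array, and for Sfrp4, Dkk2, Dkk3 and Wif1 the open circle lies with the D-ME-iPSC arrays rather than with the other ME arrays.

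Sfrp1, a binder of both Wnt ligands and Frizzled receptors, was 8.22, 8.27 and 8.19 in D-ME-iPSCs, 10.87, 11.22 and 11.44 in D-TF-iPSCs, and 8.45, 8.26 and 7.79 in ME cells (replicates 1 to 3). The D-TF-iPSC arrays stood far above all the others, whereas D-ME-iPSCs and ME cells overlapped. Sfrp1 was 7.73-fold lower in D-ME-iPSCs relative to D-TF-iPSCs (difference -2.95, SE 0.19, adjusted p = 2.17e-05) and 8.05-fold higher in D-TF-iPSCs relative to ME cells (3.01, SE 0.19, adjusted p = 1.99e-05). Without ME replicate 1 the second value was 3.15. Between D-ME-iPSCs and ME cells it differed by 0.06, with a 95% interval of -0.37 to 0.48 (0.20, -0.20 to 0.59, without that array). The study had picked Sfrp1 from these same arrays for its list of differing genes, so its call here is not independent evidence.

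Sfrp2, which in many tissues is a product of fibroblast-like cells, gave 9.72, 9.77 and 9.73 in D-ME-iPSCs, 10.99, 11.03 and 11.31 in D-TF-iPSCs, and 9.79, 9.51 and 10.23 in ME cells. Again the D-TF-iPSC arrays were all highest, with the other groups overlapping. The difference was -1.37 (2.58-fold, SE 0.17, adjusted p = 0.00102) for D-ME-iPSC minus D-TF-iPSC and 1.26 (2.40-fold, SE 0.17, adjusted p = 0.00138) for D-TF-iPSC minus ME. Without ME replicate 1 the second value was 1.24, and both calls stood.

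Frzb, also known as Sfrp3 and known best from cartilage, changed by less. Its values were 6.00, 5.86 and 5.84 in D-ME-iPSCs, 6.41, 6.63 and 6.64 in D-TF-iPSCs, and 5.80, 5.78 and 5.68 in ME cells. No group overlapped another, although the lowest D-ME-iPSC array lay only just above the highest ME array. It was called 1.58-fold lower in D-ME-iPSCs relative to D-TF-iPSCs (-0.66, SE 0.10, adjusted p = 0.00327), a call that was lost when the probe sets were summarised by their median or by the brightest one. It was called 1.75-fold higher in D-TF-iPSCs relative to ME cells (0.81, SE 0.10, adjusted p = 0.000978), with a value of 0.83 without ME replicate 1.

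Sfrp4, a family member known in human and mouse for its part in bone, ran differently. It was 6.57, 6.42 and 6.96 in D-ME-iPSCs, 7.56, 7.48 and 7.86 in D-TF-iPSCs, and 6.66, 9.26 and 9.48 in ME cells. D-ME-iPSCs lay below D-TF-iPSCs with no overlap, and ME replicates 2 and 3 lay above both, but the array labelled ME replicate 1 fell inside the D-ME-iPSC range. With all arrays no difference was called (D-ME-iPSC minus D-TF-iPSC -0.98, adjusted p = 0.402; D-ME-iPSC minus ME -1.82, adjusted p = 0.246; D-TF-iPSC minus ME -0.83, adjusted p = 0.435). Without that array all 3 were called, at -0.98 (adjusted p = 0.00105), -2.72 (6.58-fold, adjusted p = 5.1e-06) and -1.73 (3.33-fold, adjusted p = 3.82e-05). The value of the comparison that leaves ME cells out does not move, since only the spread shared by all groups is smaller.

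Dkk2, an Lrp5 and Lrp6 binder that can inhibit or, in some settings, weakly activate the pathway, was 8.35, 8.17 and 8.60 in D-ME-iPSCs, 10.71, 11.01 and 11.04 in D-TF-iPSCs, and 8.53, 7.27 and 7.38 in ME cells. The D-TF-iPSC arrays stood apart from all others, and the array labelled ME replicate 1 lay within the D-ME-iPSC range, well above the other ME arrays. Dkk2 was 5.85-fold lower in D-ME-iPSCs relative to D-TF-iPSCs (-2.55, SE 0.30, adjusted p = 0.000656) and 9.15-fold higher in D-TF-iPSCs relative to ME cells (3.19, SE 0.30, adjusted p = 0.000164). Without ME replicate 1, the excess over ME cells was 12.1-fold (3.60, SE 0.14), and D-ME-iPSCs were called 2.07-fold higher relative to ME cells (1.05, SE 0.14, adjusted p = 0.000397), where with all arrays the value was 0.65 (adjusted p = 0.274).

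Dkk3, a divergent member that does not act on Lrp5 and Lrp6 as the others do, gave 7.55, 7.59 and 7.81 in D-ME-iPSCs, 8.05, 7.80 and 7.84 in D-TF-iPSCs, and 7.45, 6.55 and 6.61 in ME cells. The iPSC-derived groups overlapped each other and both lay above all ME arrays, though ME replicate 1 came close. D-TF-iPSCs were called 2.04-fold higher than ME cells (1.03, SE 0.22, adjusted p = 0.0134), and 2.49-fold higher without ME replicate 1 (1.32). This call was lost with the other ways of summarising probe sets and without D-TF-iPSC replicate 1 (0.95). D-ME-iPSCs were 0.78 above ME cells with all arrays (adjusted p = 0.246) and were called 2.10-fold higher without ME replicate 1 (1.07, adjusted p = 8.55e-05).

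Dkk1, the best known inhibitor of its family, was 6.47, 6.16 and 6.66 in D-ME-iPSCs, 6.25, 6.24 and 6.05 in D-TF-iPSCs, and 6.30, 6.92 and 6.22 in ME cells. All 3 groups overlapped. The difference was 0.25 for D-ME-iPSC minus D-TF-iPSC (95% interval -0.20 to 0.69), -0.05 for D-ME-iPSC minus ME (-0.50 to 0.39) and -0.30 for D-TF-iPSC minus ME (-0.75 to 0.14). None was called with or without ME replicate 1. With all arrays, the intervals still allow changes of up to 0.75 on the log2 scale.

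Wif1, which binds Wnt ligands directly, was 6.04, 5.98 and 5.97 in D-ME-iPSCs, 6.25, 6.11 and 6.13 in D-TF-iPSCs, and 6.00, 7.72 and 7.83 in ME cells. Like Sfrp4, it was high in ME replicates 2 and 3 only, and the array labelled ME replicate 1 lay within the D-ME-iPSC range. With all arrays it was not called (D-ME-iPSC minus ME -1.19, adjusted p = 0.246; D-TF-iPSC minus ME -1.02, adjusted p = 0.124). Without that array it was called 3.44-fold lower in D-ME-iPSCs relative to ME cells (-1.78, SE 0.09, adjusted p = 1.54e-06) and 3.06-fold lower in D-TF-iPSCs relative to ME cells (-1.62, SE 0.09, adjusted p = 1.05e-06). D-ME-iPSCs and D-TF-iPSCs differed by -0.17, with an interval of -1.07 to 0.74 with all arrays and of -0.34 to 0.01 without ME replicate 1. Neither fit called this difference, although all D-ME-iPSC arrays lay below all D-TF-iPSC arrays, as for 23.2% of all genes.

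Counted together, the comparison of D-ME-iPSCs with ME cells called 0 of the 8 genes with all arrays, as it called 0% of all genes. At an unadjusted p under 0.05, Sfrp4, Dkk3 and Wif1 passed in limma, as did 18.9% of all genes, and 0 members passed the methods' t-test, as 5.26% of all genes did. Without ME replicate 1 it called 4 of 8, with Dkk2 and Dkk3 higher and Sfrp4 and Wif1 lower, where 23.6% of all genes were called higher and 15.1% lower, so the share of 4 in 8 stands close to the 38.7% called overall. Without that array D-ME-iPSC minus D-TF-iPSC called 5 of 8 lower (12.8% of all genes lower, 28.3% in either direction), and D-TF-iPSC minus ME called 5 higher and 2 lower (22.8% and 16.4% of all genes, 39.1% in either direction). The 4 and 5 genes called with all arrays were among these, in the same direction. With the methods' t-test, adjusted over all genes, all arrays gave 5 of 8 calls for D-ME-iPSC minus D-TF-iPSC, where Sfrp4 was added (30.3% of all genes), and 2 of 8 for D-TF-iPSC minus ME (3.05% of all genes). Sfrp1 and Frzb kept their call against ME cells there, and those of Sfrp2, Dkk2 and Dkk3 were lost. Groups did not overlap for 6 genes lower in D-ME-iPSCs relative to D-TF-iPSCs (23.2% of all genes) and for 5 genes higher in D-TF-iPSCs relative to ME cells (14.9%).

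**Figure D2:**
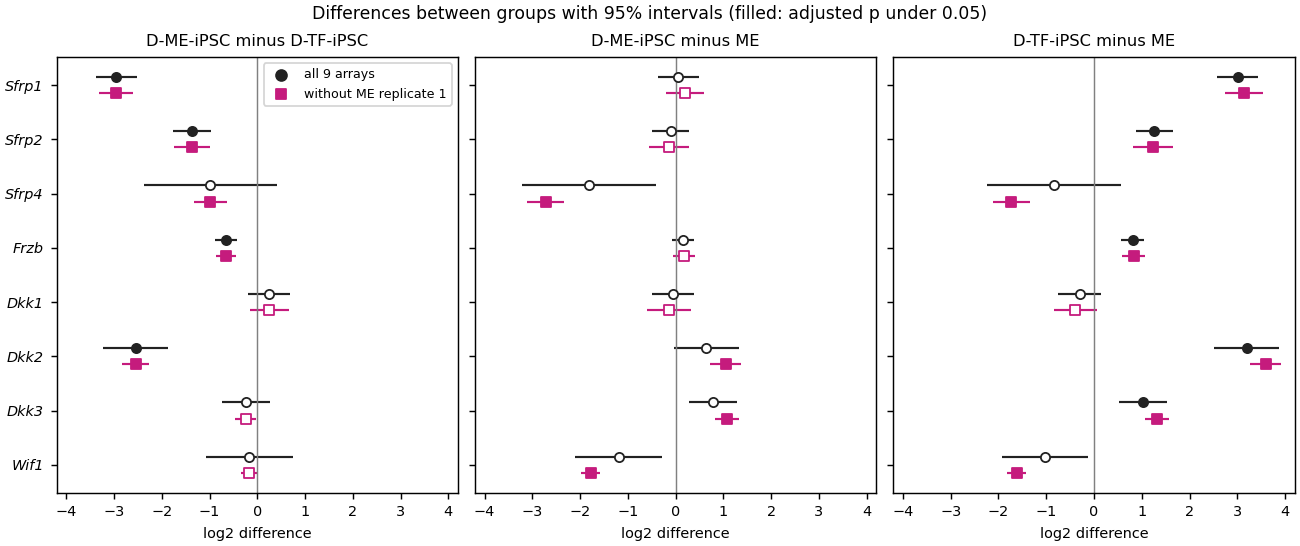
Log2 difference of each gene (points) with its 95% interval (lines) in the 3 comparisons, from all 9 arrays (circles) and without ME replicate 1 (squares); filled marks passed an adjusted p of 0.05. Sfrp1 and Dkk2 lie farthest from 0 in both comparisons with D-TF-iPSCs, and Sfrp4 and Wif1 pass against ME cells only without ME replicate 1.

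The single probe sets, each of which reads a short stretch of a gene, showed how evenly these differences were spread. All 5 probe sets of Sfrp1 and all 4 of Dkk2 were called lower in D-ME-iPSCs relative to D-TF-iPSCs, and all of them were called higher in D-TF-iPSCs relative to ME cells, with or without ME replicate 1. Among all probe sets, 2.48% were called lower between D-ME-iPSCs and D-TF-iPSCs and 3.82% higher between D-TF-iPSCs and ME cells. For Sfrp1 the differences ran from -4.04 to -1.72 for D-ME-iPSC minus D-TF-iPSC and from 1.72 to 4.29 for D-TF-iPSC minus ME. For Dkk2 they ran from -3.09 to -1.22 and from 1.28 to 4.22.

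The Sfrp1 probe set with the steepest contrast (number 5) was 6.69, 6.54 and 6.84 in D-ME-iPSCs, 10.39, 10.71 and 11.10 in D-TF-iPSCs, and 7.25, 6.14 and 5.95 in ME cells. The shallowest (number 1) was 7.12, 7.09 and 6.13 in D-ME-iPSCs, 7.86, 8.89 and 8.73 in D-TF-iPSCs, and 7.04, 6.74 and 6.53 in ME cells. Both keep D-TF-iPSCs above every other array. For Dkk2, probe set 4 was 8.80, 8.38 and 9.17 in D-ME-iPSCs, 11.76, 11.89 and 11.98 in D-TF-iPSCs, and 8.99, 6.61 and 7.36 in ME cells. Probe set 4, the steepest, shows all that the gene mean shows, including ME replicate 1 at the D-ME-iPSC level. The shallowest (number 1) was 7.04, 6.79 and 6.87 in D-ME-iPSCs, 7.72, 8.45 and 8.19 in D-TF-iPSCs, and 6.79, 7.00 and 6.74 in ME cells. There D-TF-iPSCs were again highest, but ME replicate 1 lay between the other ME arrays.

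In Sfrp2, 3 of 4 probe sets were called in both comparisons with D-TF-iPSCs, and the remaining one differed by -0.04 and -0.16. In Frzb only 1 of 10 was called lower in D-ME-iPSCs relative to D-TF-iPSCs and 3 of 10 higher in D-TF-iPSCs relative to ME cells. In Dkk3 2 of 9 were called higher in D-TF-iPSCs relative to ME cells, and in Dkk1 0 of 6 were called in any comparison. Without ME replicate 1 these counts were 2 and 5 of 10 in Frzb, 5 of 9 in Dkk3 and 0 of 6 in Dkk1. Leaving out that array also called 5 of 9 in Dkk3 and 3 of 4 in Dkk2 higher in D-ME-iPSCs relative to ME cells. Sfrp4 had 0 of 7 called with all arrays, but 6 of 7 were lower in D-ME-iPSCs relative to ME cells and 6 of 7 lower in D-TF-iPSCs relative to ME cells without ME replicate 1, where 5.39% and 7.37% of all probe sets were lower. It also had 4 of 7 called lower in D-ME-iPSCs relative to D-TF-iPSCs without ME replicate 1 (11.2% of all probe sets in either direction). Wif1 had 1 of 11 called lower in D-TF-iPSCs relative to ME cells (3.55% of all probe sets), and 7 of 11 without that array, with 8 of 11 lower in D-ME-iPSCs relative to ME cells. Over the 8 genes, 13, 0 and 18 of the 56 probe sets were called for D-ME-iPSC minus D-TF-iPSC, D-ME-iPSC minus ME and D-TF-iPSC minus ME with all arrays (5.32%, 0% and 7.38% of all probe sets), and 18, 22 and 35 without ME replicate 1 (11.2%, 18.5% and 20.5%).

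**Figure D3:**
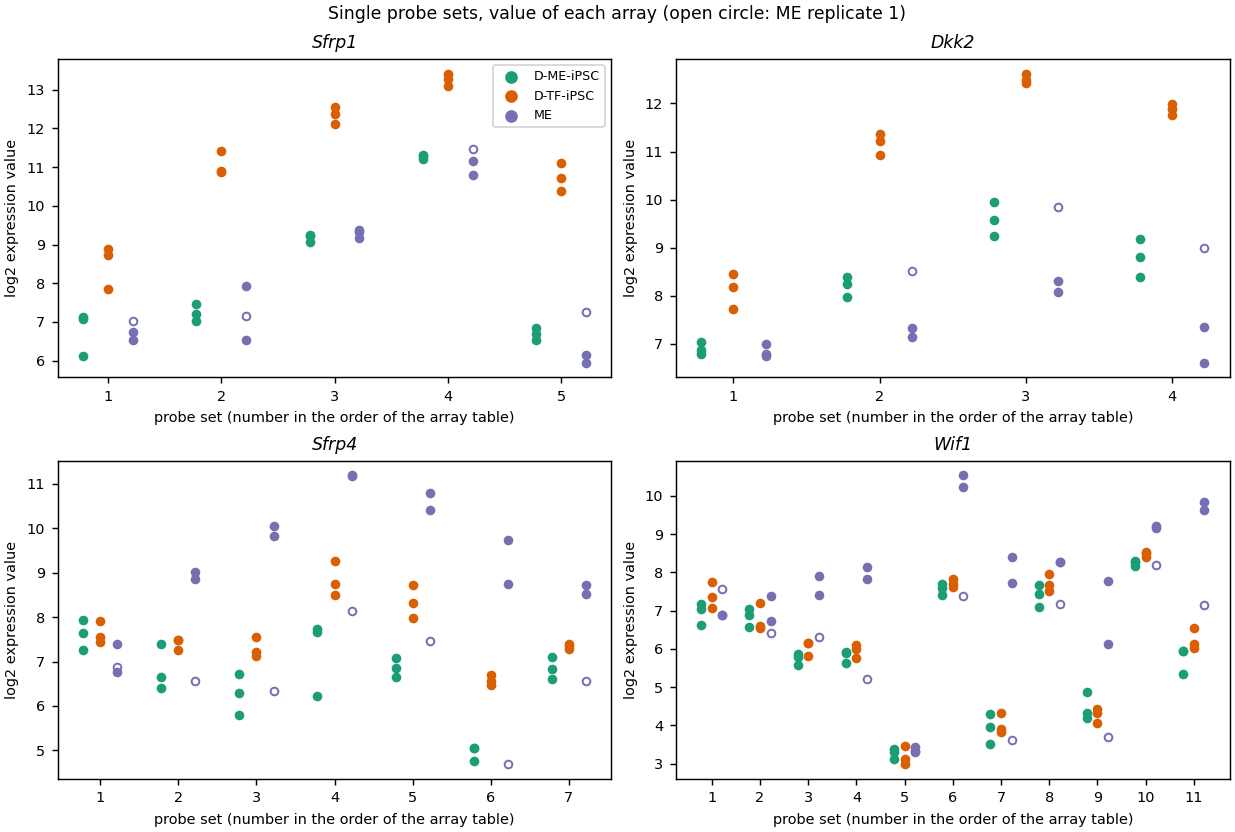
Log2 expression value of each probe set of Sfrp1, Dkk2, Sfrp4 and Wif1 on each array (points, coloured by group; open circles, ME replicate 1). Every probe set of Sfrp1 and Dkk2 is highest in D-TF-iPSCs, while most probe sets of Sfrp4 and Wif1 are highest in ME replicates 2 and 3.

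Genes with the most similar profiles were sought by the root mean square difference of log2 values over the 9 arrays, each gene centred on its own mean. The nearest to Sfrp1 were Cyp7b1 (0.15), Fap (0.26) and 4933400A11Rik (0.27). Cyp7b1, an oxysterol hydroxylase, averaged 6.68 in D-ME-iPSCs, 9.47 in D-TF-iPSCs and 6.63 in ME cells, and Fap, a surface protease used as a fibroblast marker, averaged 7.26, 9.95 and 7.48 in the same order. The nearest to Dkk2 were Aldh1a2 (0.19), an enzyme that makes retinoic acid, Raet1d (0.20), a ligand of an immune receptor, and Fibin (0.24). Among the 8 genes themselves the closest pairs were Sfrp2 with Frzb (0.36), Frzb with Dkk3 (0.38) and Sfrp1 with Dkk2 (0.38), and Sfrp4 lay nearest to Wif1 (0.47). The measure falls with the size of a gene's changes, so genes of small range look alike by it.

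Markers of fibroblasts and epithelium moved along with these genes. Of 14 fibroblast markers, 10 were called lower and 0 higher in D-ME-iPSCs relative to D-TF-iPSCs, and 12 were called higher and 1 lower in D-TF-iPSCs relative to ME cells. The counts without ME replicate 1 were 12 lower and 1 higher, and 12 higher and 2 lower. The mean log2 level of the list was 9.13 to 9.19 in D-ME-iPSCs, 10.31 to 10.36 in D-TF-iPSCs and 8.94 to 9.24 in ME cells. Of 9 epithelial markers, 9 were called higher in D-ME-iPSCs relative to D-TF-iPSCs and 9 lower in D-TF-iPSCs relative to ME cells, with or without ME replicate 1, with list means of 9.46 to 9.49 in D-ME-iPSCs, 7.39 to 7.54 in D-TF-iPSCs and 9.16 to 9.48 in ME cells. Cdh1, the epithelial cadherin, was 11.57 to 11.70 in D-ME-iPSCs, 9.29 to 9.57 in D-TF-iPSCs and 11.35 to 11.70 in ME cells. Of the 5 immune markers measured, 1 (Adgre1, of macrophages) was called lower in D-ME-iPSCs relative to D-TF-iPSCs and higher in D-TF-iPSCs relative to ME cells. For D-ME-iPSC minus D-TF-iPSC the median difference of the 5 was -0.95, while Csf1r and Cd3e differed by 0.06 and -0.10. Leaving out ME replicate 1 gave 3 lower, and 2 higher and 1 lower. The list averaged 6.59 to 6.66 in D-ME-iPSCs, 7.30 to 7.55 in D-TF-iPSCs and 6.65 to 7.63 in ME cells. The part of the fibroblast, epithelial and immune cells in the differences of Sfrp1, Sfrp2, Frzb and Dkk2 was not tested.

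The arrays in which Sfrp4 and Wif1 were high differed from ME replicate 1 in markers too, but in both directions. Of the 14 fibroblast markers, 5 were higher and 6 lower in both ME replicates 2 and 3 relative to ME replicate 1, and the list means were 9.17, 8.94 and 9.24 in ME replicates 1 to 3. Lum, a proteoglycan of connective tissue, was 8.82 to 8.86 in D-ME-iPSCs, 8.04 to 8.31 in D-TF-iPSCs, and 9.02, 10.30 and 10.83 in ME replicates 1 to 3. Dcn, another such proteoglycan, was 11.27 to 11.33 in D-ME-iPSCs, 11.33 to 11.57 in D-TF-iPSCs, and 11.21, 12.40 and 12.66 in ME replicates 1 to 3. Both were highest in ME replicates 2 and 3, whereas Pdgfrb, a receptor of fibroblasts and pericytes, was 9.25, 6.87 and 7.54 and Thy1 was 10.04, 8.72 and 9.04 in ME replicates 1 to 3. Of the 5 immune markers, 4 were higher in both ME replicates 2 and 3 relative to ME replicate 1, led by Cd68 at 7.84, 11.03 and 10.03 in ME replicates 1 to 3, and 1 was lower, Csf1r at 6.89, 6.22 and 6.27. Of the 6 endothelial markers, 0 were higher and 5 lower in both, with Pecam1, the endothelial adhesion molecule, at 8.15, 6.82 and 6.89. Of the 11 luminal mammary markers measured, 8 were higher and 1 lower in both, with list means of 9.33, 10.53 and 10.30 in ME replicates 1 to 3. Of the 9 basal mammary markers, 1 was higher and 6 lower in both, with list means of 10.72, 9.75 and 10.55. The part of fibroblasts and of immune, endothelial, luminal and basal cells in the Sfrp4 and Wif1 values was not tested. Of the 7 pluripotency markers 0 were called by limma in any comparison with all arrays. At an unadjusted p under 0.05 in limma, 0, 0 and 2 passed, where 5067, 3857 and 5972 of all 20422 genes passed. When ME replicate 1 was left out, 0, 1 and 1 were called, both lower, where 28.3%, 38.7% and 39.1% of all genes were called in either direction.

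The rest of the pathway was examined in 85 other genes. Of these, 10 were called higher and 9 lower in D-ME-iPSCs relative to D-TF-iPSCs, and 0 were called between D-ME-iPSCs and ME cells. At an unadjusted p under 0.05 in limma, 21 passed in the latter comparison, where 18.9% of all genes passed. In D-TF-iPSCs relative to ME cells 13 were called higher and 6 lower. Of all genes, 13.3%, 0% and 16.3% were called in either direction in these comparisons. Without ME replicate 1 the counts were 21 and 15, 24 and 13, and 19 and 14 (28.3%, 38.7% and 39.1% of all genes), and all 19 genes called with all arrays in each comparison with D-TF-iPSCs kept their call and its direction. The median differences of these genes were 0.01, 0.02 and -0.01. Among 13 further inhibitors, which include Sfrp5, Dkk4, Sost, Sostdc1, Notum and the Dickkopf receptors Kremen1 and Kremen2, 0 were called by limma in any comparison with all arrays. At an unadjusted p under 0.05 in limma, 3, 1 and 1 of them passed, where 5067, 3857 and 5972 of all 20422 genes passed. The methods' t-test, adjusted, called 3, 0 and 0, where it called 30.3%, 0% and 3.05% of all genes. Without ME replicate 1 limma called 2, 4 and 1 of 13, the largest being Trabd2b, a protease that inactivates Wnt ligands, at 0.87 for D-ME-iPSC minus ME.

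Of the Wnt lists, the R-spondin system had the largest share of calls with all arrays, 6 of 9 genes between D-ME-iPSCs and D-TF-iPSCs and 7 of 9 between D-TF-iPSCs and ME cells, against the same 13.3% and 16.3% of all genes. With ME replicate 1 left out the counts were 8 and 7 of 9. R-spondins are secreted proteins that strengthen Wnt signalling through Lgr4, Lgr5 and Lgr6 by removing the ubiquitin ligases Rnf43 and Znrf3 from the cell surface. Rspo2 was 5.63, 5.45 and 5.51 in D-ME-iPSCs, 7.48, 7.72 and 7.80 in D-TF-iPSCs, and 5.47, 5.75 and 5.74 in ME cells, with differences of -2.14 for D-ME-iPSC minus D-TF-iPSC and 2.01 for D-TF-iPSC minus ME. Rspo3 showed the same order, at -1.95 and 1.75, and so did the receptor Lgr5, at -1.81 and 2.04. Lgr4 (0.90 and -1.56) and Rnf43 (0.72 and -1.23) ran the opposite way. Rspo1 was 7.68, 7.71 and 7.80 in D-ME-iPSCs, 7.02, 6.87 and 7.02 in D-TF-iPSCs, and 7.68, 10.30 and 9.49 in ME cells, so that, like Sfrp4 and Wif1, it was highest in ME replicates 2 and 3. It was called lower in D-TF-iPSCs relative to ME cells (-2.19, adjusted p = 0.0203, and -2.93 without ME replicate 1).

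Of 19 Wnt ligands, 2 were called higher and 1 lower in D-ME-iPSCs relative to D-TF-iPSCs, and 2 higher and 1 lower in D-TF-iPSCs relative to ME cells. These counts were 4 higher and 3 lower, and 2 higher and 2 lower, without ME replicate 1. Of all genes, 13.3% and 16.3% were called in either direction in these comparisons (28.3% and 39.1% without ME replicate 1). With all arrays the ligand counts thus stood close to the share of all genes. The same shares apply to the receptors, intracellular components and targets that follow. Wnt7a (1.33) and Wnt5b (1.03) were higher in D-ME-iPSCs relative to D-TF-iPSCs and Wnt2b was lower (-0.86). Wnt5a (1.32) and Wnt2b (0.89) were higher in D-TF-iPSCs relative to ME cells and Wnt5b was lower (-0.49). Wls, which carries Wnt ligands to the cell surface, was 9.65, 9.60 and 9.54 in D-ME-iPSCs, 10.68, 10.85 and 10.67 in D-TF-iPSCs, and 9.79, 9.46 and 9.05 in ME cells, a difference of -1.14 and of 1.30. As for Sfrp1 and Dkk2, the D-TF-iPSC arrays were all above the other arrays.

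Of 16 receptors, 3 were called between D-ME-iPSCs and D-TF-iPSCs, with Ror1 (1.04) and the co-receptor Lrp5 (0.64) higher and Fzd4 (-0.68) lower in D-ME-iPSCs, and 4 were called higher in D-TF-iPSCs relative to ME cells, led by Fzd2 (1.00) and Ryk (0.88). The receptor counts without ME replicate 1 were 5 higher and 4 lower for D-ME-iPSC minus D-TF-iPSC, and 5 higher and 2 lower for D-TF-iPSC minus ME. Of 18 intracellular components, 2 were called higher and 2 lower in D-ME-iPSCs relative to D-TF-iPSCs, and 2 higher and 0 lower in D-TF-iPSCs relative to ME cells. Leaving out ME replicate 1 made these counts 3 and 2, and 6 and 4. Lef1, which acts with β-catenin at target genes, was lower in D-ME-iPSCs relative to D-TF-iPSCs (-0.69) and higher in D-TF-iPSCs relative to ME cells (1.02), as was Pygo1 (-0.48 and 0.74). Tcf7 (0.98) and Tcf7l1 (0.41), factors of the same family as Lef1, were higher in D-ME-iPSCs relative to D-TF-iPSCs.

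The 14 genes listed as Wnt targets, of which Lgr5, Rnf43, Znrf3, Tcf7, Lef1 and Notum also stand in lists counted above, moved both ways. Between D-ME-iPSCs and D-TF-iPSCs 4 were called higher and 3 lower, and between D-TF-iPSCs and ME cells 3 were called higher and 3 lower. The counts were 5 and 3, and 4 and 4, without ME replicate 1. Axin2, a feedback inhibitor and the usual readout of the pathway, averaged 7.05 ± 0.13 in D-ME-iPSCs, 7.04 ± 0.12 in D-TF-iPSCs and 7.04 ± 0.12 in ME cells (SD, n = 3 each) and was not called. These averages lay below the median of every array (7.45 to 7.61), but that median is taken over single probe sets, not over genes. The activity of the pathway itself was not measured. Ccn4, a matrix protein, was lower in D-ME-iPSCs relative to D-TF-iPSCs (-1.34) and higher in D-TF-iPSCs relative to ME cells (2.39). Ccnd1, the cyclin that drives entry into the cell cycle, was higher in D-ME-iPSCs relative to D-TF-iPSCs (1.14), and Myc was lower in D-TF-iPSCs relative to ME cells (-0.87).

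**Figure D4:**
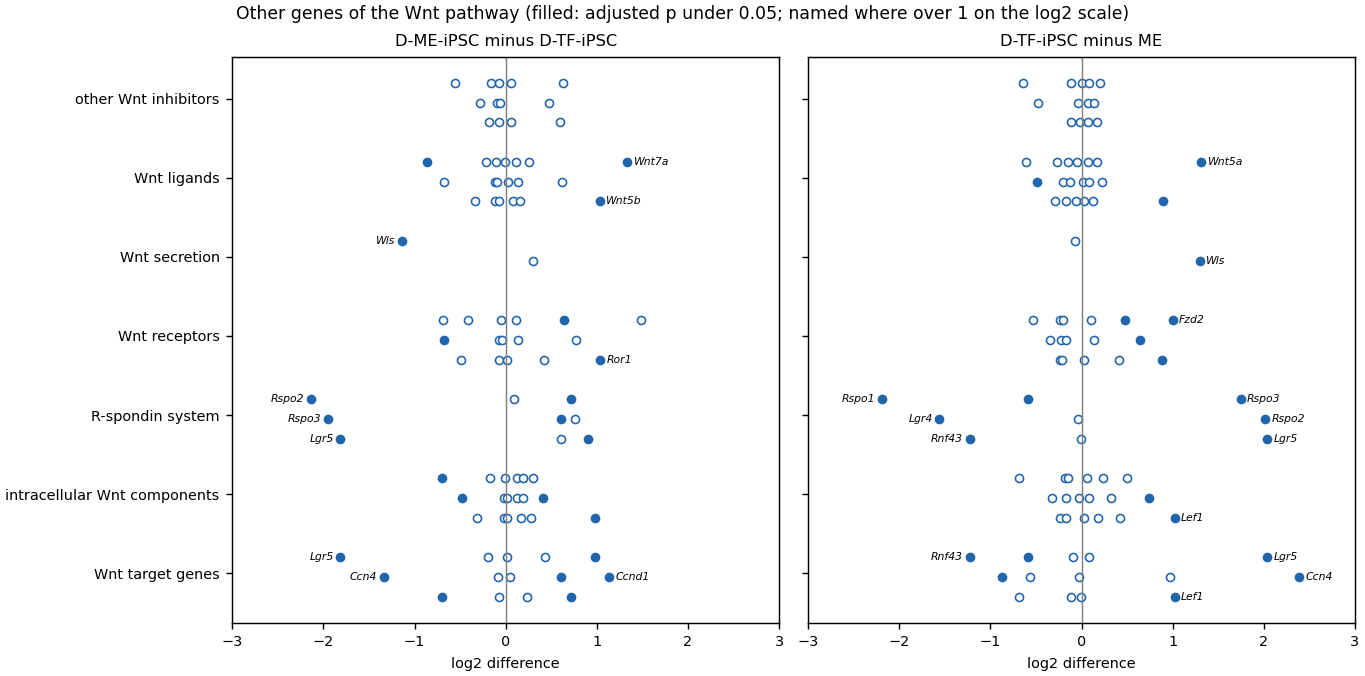
Log2 difference of 85 other Wnt pathway genes by list (rows; a gene in several lists appears in each), for D-ME-iPSC minus D-TF-iPSC (left) and D-TF-iPSC minus ME (right), from all 9 arrays; points are genes, filled where the adjusted p was under 0.05 and named where the difference also exceeded 1. The list of other Wnt inhibitors holds no filled point, while the R-spondin system holds filled points on both sides of 0.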

How the data were processed

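Total RNA of 9 samples was labelled with biotin and measured on Affymetrix mouse gene arrays. The authors deposited log2 values per probe set, made, per the labels, with RMA and Partek; the sources used here do not give versions, settings or genome build, and neither scanner images nor raw intensities were used. Array medians ran from 7.45 to 7.61. Groups came from the sample labels. Of 241576 probe sets, 212138 carried exactly 1 gene symbol in the platform annotation and were averaged into 20422 genes, with no filter on dim genes; 4672 with several symbols and 24766 with none were left out. Listed genes were matched by current or older symbol. Prlr was not analysed here.

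One mean per group was fitted to all 9 arrays with limma 3.58.1 (R 4.3.3), p-values were Benjamini-Hochberg adjusted over all genes, or all probe sets, and intervals are 95%. The fit was tested on simulated data. The number of arrays limits the precision. The methods name Student's test without covariates; it was run as an alternative, as were other normalizations, probe set summaries, variance models, array subsets and thresholds. The members and lists were chosen with earlier results of these data known. Genes named are the 8 members, per Wnt list and comparison up to 2 called genes each way of largest difference, the 3 genes nearest to Sfrp1 and to Dkk2, and markers that stand beside a result. Rspo3 against ME cells and Trabd2b, Axin2 and the further inhibitors were named outside this rule, after their values were seen.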

Additional observations from a re-analysis of the deposited data

How the results depend on the processing

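Quantile normalization, median centring, a filter that kept the 5 members above the median gene, both other probe set summaries, a trended and robust spread, fits on 6 arrays and a threshold of 0.01 kept the counts of members called within 1.5 times of those reported. The methods' t-test, adjusted, called 2 members (Sfrp1 and Frzb) for D-TF-iPSC minus ME, where it called 3.05% of all genes. Array weights called 7 for D-ME-iPSC minus ME. These weights were 0.0658, 0.142 and 8.98 for ME replicates 1 to 3, so ME replicate 3 made up nearly all of the ME group. The share of all genes called with them is not given here, so the 7 cannot be set against it. The cause of either change was not tested. Without each array in turn, members called ranged over 4 to 5 (D-ME-iPSC minus D-TF-iPSC), 0 to 4 (D-ME-iPSC minus ME) and 4 to 7 (D-TF-iPSC minus ME), and probe sets over 8 to 18, 0 to 22 and 9 to 35; the highest of each came without ME replicate 1, and the lowest probe set counts without D-ME-iPSC replicate 2 (8) and D-TF-iPSC replicate 3 (9; 11 without replicate 2). Signs turned only for values near 0 that were not called with all arrays: Sfrp1, D-ME-iPSC minus ME, was -0.0048 with quantile normalization and -0.0071 with median centring and ranged from -0.13 to 0.20 without each array; Sfrp2 ranged from -0.27 to 0.087 and Dkk1 from -0.18 to 0.17 in the same comparison; Dkk1 was 0.19 there with array weights, and -0.036 for D-ME-iPSC minus D-TF-iPSC by the brightest probe set. Replicate numbers did not pair the arrays (correlation of deviations -0.18 to 0.16), and a fit with the replicate block called 4, 0 and 5 members, as without it. The spread of the ME arrays sets what could be called against them.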
